A study of Mus musculus with 119 samples.

Results

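Myc and 6 further genes of the network that its dimerization partner MAX organizes (Max, Mxd1, Mxi1, Mxd4, Mnt, and Mlx) were followed in RNA-seq of mouse bone marrow–derived macrophages (BMDMs). They were chosen by gene symbol. All 7 were found among the 18098 genes of the deposited table, and all 7 passed the filter on low values, which left 11884 genes in the fit of WT, Map3k8[D270A], and Elk1-/-Elk4-/- cells and 11971 genes in the fit of all cells.

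All cells were of strain C57BL/6(NIMR), were grown from bone marrow for 7 d in medium with L-cell–conditioned supernatant, and were kept overnight in 1% FBS before LPS, a ligand of TLR4, was added at 100 ng/ml. WT cells gave 6 unstimulated libraries and, after 0.5, 1, and 2 h, a further 6, 6, and 4. Map3k8[D270A] cells, which carry TPL-2 without kinase activity, gave 6 at each of these times, and Elk1-/-Elk4-/- cells, which lack both ternary complex factors ELK1 and ELK4, gave 4 at each. Nfkb1[SS/AA] cells, whose p105 cannot be phosphorylated by IKK at the mutated serines, gave 6 at 0, 0.5, and 1 h. WT cells with the MKK1/2 inhibitor PD0325901 (0.1 µM) gave 3 libraries each after 10, 40, and 70 min of inhibitor alone, and, with LPS added after 10 min of inhibitor, 6 at 0.5 h and 6 at 1 h, and 3 libraries were from WT cells given the solvent DMSO for 10 min. WT cells with the RSK inhibitor RSKi47 (2 µM) gave 4, 3, 4, and 4 libraries at 0, 0.5, 1, and 2 h of LPS. RSKi47 was given 10 min before LPS, or before harvest at 0 h. These libraries form 25 groups. The labels and methods do not state age, sex, or how many mice gave the marrow, so p values measure the spread between libraries, which may in part be technical.

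MYC, MAX, and their relatives are basic helix-loop-helix leucine zipper proteins, and MYC binds DNA only as a dimer with MAX. MYC-MAX dimers activate genes of ribosome production, nucleotide and polyamine synthesis, and growth, whereas MXD1, MXI1, MXD4, and MNT take MAX into dimers that recruit SIN3 corepressors to the same sequence, CACGTG, a form of the E-box. MLX dimerizes with MXD1, MXD4, and MNT but also with the glucose-sensing factors MLXIP and MLXIPL, and so links both branches. In macrophages Myc is known as an early gene of the response to growth factors and to LPS.

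In the RefSeq annotation of GRCm38.p6, the patched form of the mm10 assembly that the authors used, Myc lies on chromosome 15 from 61985341 to 61990361, Max on chromosome 12 from 76937269 to 76962323, and Mxd1 on chromosome 6 from 86647044 to 86669234. Mxi1 lies on chromosome 19 from 53310128 to 53373293, Mxd4 on chromosome 5 from 34176580 to 34187710, Mnt on chromosome 11 from 74830806 to 74845725, and Mlx on chromosome 11 from 101086707 to 101092207. Promoters of 250 bases before to 50 bases after a start were matched for 6 members, all but Myc. They were searched on both strands for CACGTG, the letters that dimers of this network bind. It was present in promoters of 4 members, Max, Mxd4, Mnt, and Mlx, and absent from those of Mxd1 and from the 3 of Mxi1, and 7.15% of all 32851 promoters in the table held it. The first base of CACGTG lay at -219 from the transcript start of the promoter table in Mxd4, -123 in Mnt, -40 in Mlx, and -3 in Max. This start is the end of the gene span nearest the promoter in Mxd4, but lies inside the span given above in Mnt, Mlx, Max, and Mxd1. The sequences below show where these letters sit in the repressor genes Mxd4 and Mnt (chr5:34187711-34187960 on the minus strand and chr11:74830674-74830923 on the plus strand), and the promoter of the repressor gene Mxd1, which lacks them (chr6:86669160-86669409 on the minus strand). Windows of 60 bases are shown for Mlx (chr11:101087223-101087282, plus strand) and Max (chr12:76962219-76962278, minus strand). All are from RefSeq, 5′ to 3′, with CACGTG in capitals.
Mxd4: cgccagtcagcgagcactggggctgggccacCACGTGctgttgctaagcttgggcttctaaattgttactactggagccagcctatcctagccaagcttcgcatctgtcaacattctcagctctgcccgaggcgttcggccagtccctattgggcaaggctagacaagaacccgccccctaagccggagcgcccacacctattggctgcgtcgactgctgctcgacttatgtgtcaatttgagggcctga
Mnt: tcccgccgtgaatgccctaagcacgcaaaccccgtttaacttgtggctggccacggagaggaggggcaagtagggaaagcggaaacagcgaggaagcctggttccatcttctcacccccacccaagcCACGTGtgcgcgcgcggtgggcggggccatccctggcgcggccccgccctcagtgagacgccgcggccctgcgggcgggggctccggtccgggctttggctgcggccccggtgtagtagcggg
Mxd1: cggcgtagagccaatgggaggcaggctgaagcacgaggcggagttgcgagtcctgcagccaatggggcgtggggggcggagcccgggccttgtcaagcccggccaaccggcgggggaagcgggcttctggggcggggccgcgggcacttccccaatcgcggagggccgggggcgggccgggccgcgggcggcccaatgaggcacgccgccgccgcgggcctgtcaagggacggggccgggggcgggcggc
Mlx: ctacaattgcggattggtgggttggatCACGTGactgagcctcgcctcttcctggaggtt
Max: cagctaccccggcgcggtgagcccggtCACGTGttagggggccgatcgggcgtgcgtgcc
A match of letters describes the sequence and not the binding of a factor. The AP-1 letters TGANTCA, which 7.81% of all promoters held, and the CRE letters TGACGTCA (1.79%) were in none of the promoters searched, which do not include that of Myc. Among these, the ETS core CCGGAA (14.9%) was in that of Mlx alone, on the reverse strand.

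Values below are the normalized expression values as deposited, on a log2 scale with 1 value per gene and library, and a difference is one of group means on that scale. The transformation is not stated, so a difference of 1 may not be an exact doubling. Depth is unknown from these values. A member was called changed at an adjusted p below 0.05 by limma, with Benjamini-Hochberg adjustment over all genes tested. Beside each count of called members stands the share of all tested genes called in the same comparison. Levels are compared only within a gene, since no correction for gene length is stated. In bulk RNA, fewer cells of a type and less RNA per cell cannot be told apart. By the labels, which name an experiment for each library, the WT libraries belong to that with Map3k8[D270A] cells only, so the difference of Elk1-/-Elk4-/-, Nfkb1[SS/AA], DMSO, PD0325901, and RSKi47 libraries from WT cannot be told apart from a difference between experiments. All of these comparisons share the WT libraries. Elk1 was 9.14 in WT and 6.36 in Elk1-/-Elk4-/- cells without LPS, and Elk4 was 7.72 and 5.71, as the labels state. The D270A and SS/AA alleles are point mutations that expression values do not check. The log2 of summed macrophage marker values was 18.3 to 19.1 over all libraries. It was 18.5 to 18.8 in WT and 18.3 to 18.5 in Elk1-/-Elk4-/- cells, below every WT library at each time. Map3k8[D270A] cells at 2 h (18.54 to 18.709) lay just below WT (18.710 to 18.83). At 1 h Nfkb1[SS/AA] (18.76 to 19.12) and RSKi47 libraries (18.77 to 18.90) lay above WT (18.58 to 18.75). At 0.5 h Nfkb1[SS/AA] libraries (lowest 18.6580) lay just above WT (highest 18.6575). Its part in the differences of these cells was not tested. The summed neutrophil marker values were 6.24 to 7.74 in WT, 6.14 to 7.54 in Map3k8[D270A], and 10.0 to 11.0 in Elk1-/-Elk4-/- libraries.

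Myc, the activator of the network, rose and fell again within 2 h of LPS in WT cells. Its 6 values without LPS had a lowest value of 9.56 and a highest of 9.91 (9.70 ± 0.12, SD, n = 6). At 0.5 h they lay from 10.48 to 11.04 (10.74 ± 0.22, SD, n = 6), and at 1 h from 11.35 to 11.54 (11.46 ± 0.07, SD, n = 6). The ranges of these 3 times do not overlap. WT replicates 4 to 6 lay below 7 to 9 without LPS (9.56 to 9.66 against 9.73 to 9.91) and at 0.5 h (10.48 to 10.60 against 10.85 to 11.04), so the pooled WT ranges at these times span 2 sets. At 2 h the libraries had 9.48, 9.68, 9.70, and 9.55, which is back within or just below the range without LPS. The difference from unstimulated cells was 1.03 ± 0.07 (SE) at 0.5 h (limma adjusted p = 3.38e-18), 1.76 ± 0.07 at 1 h (limma adjusted p = 2.62e-29), and -0.10 at 2 h (limma adjusted p = 0.2385). From 1 to 2 h Myc fell by 1.86 ± 0.08 (limma adjusted p = 7.17e-28), in a comparison that was chosen after the values were seen.

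The repressors of the network took 3 courses in WT cells. Mxd1, an antagonist of MYC in differentiating cells, rose with Myc but stayed high. It went from 9.25 ± 0.12 (SD, n = 6) to 9.88 ± 0.19 at 0.5 h, 10.85 ± 0.18 at 1 h, and, with 10.49, 10.67, 10.70, and 10.44, to 10.57 ± 0.13 at 2 h. Its difference from unstimulated cells was 0.63 ± 0.08 (SE), 1.60 ± 0.08, and 1.32 ± 0.09 at the 3 times, with limma adjusted p of 5.90e-08, 1.36e-23, and 1.69e-18. Mnt, the most widely expressed antagonist of MYC, fell. Its values were 10.20 to 10.35 without LPS, 10.15 to 10.46 at 0.5 h, 9.51 to 9.69 at 1 h, and 8.34, 8.54, 8.28, and 8.56 at 2 h, so that every library at 1 h lay below every unstimulated one and every library at 2 h lay below those at 1 h. The difference was -0.66 ± 0.06 at 1 h (limma adjusted p = 1.13e-14) and -1.83 ± 0.07 at 2 h (limma adjusted p = 1.59e-31). Mxd4 also fell, from 9.85 ± 0.06 (SD, n = 6) to 9.54 ± 0.05 at 1 h and 8.97 ± 0.06 (SD, n = 4) at 2 h, a difference of -0.30 (limma adjusted p = 3.64e-06) and -0.88 (limma adjusted p = 3.87e-19). Mxi1, the remaining repressor of the MXD family examined, was at 9.52, 9.56, 9.63, and 9.50 and was called at none of the times. With the replicate number as a block it was called at 1 h (0.10, limma adjusted p = 0.0241).

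The partners differed from each other. Max, with 10.58 ± 0.05 (SD, n = 6) without LPS, was at 10.53 and 10.46 at 0.5 and 1 h, then rose to 11.14 ± 0.10 (SD, n = 4) at 2 h, a difference of 0.56 (limma adjusted p = 1.02e-12). Mlx had a difference of 0.01, -0.04, and -0.07 at the 3 times, none of them called, although with the replicate number as a block the last was (limma adjusted p = 0.0477). It was the steadiest member over the whole series, with group means between 9.46 and 9.63 in all 25 groups. Of the 7 members, 2 were called at 0.5 h, 4 at 1 h, 4 at 2 h, and 5 between 1 and 2 h, against 11.6%, 46.8%, 71.5%, and 65.3% of all genes tested. At 1 and 2 h the share of members called was not far from that of all genes.

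**Figure D1:**
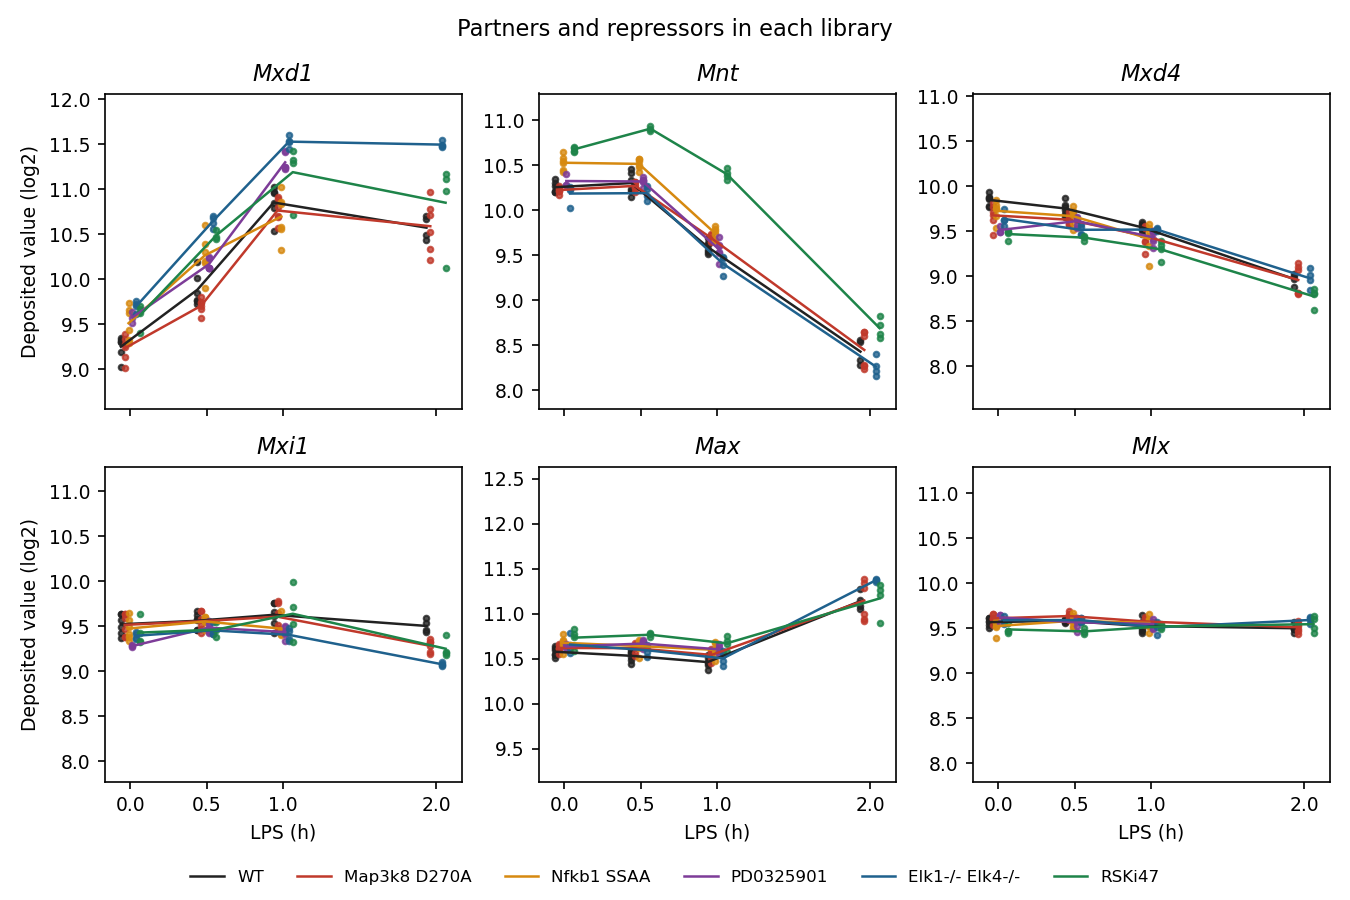
Deposited value (log2, y axis, of equal span in each panel) of the 6 partners and antagonists against hours of LPS (x axis), with 1 point per library, lines through group means, and a color for each genotype or inhibitor (0 h of PD0325901 is 10 min of inhibitor alone). Mnt falls to between 8.28 and 8.56 in WT at 2 h, and Mxd1 in Elk1-/-Elk4-/- cells lies at 11.47 to 11.55 at 2 h, above the WT values of 10.44 to 10.70.

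Map3k8[D270A] cells, which lack TPL-2 kinase activity, had lower Myc than WT at the peak and after it. Without LPS the Map3k8[D270A] libraries had 9.70 to 10.04 (9.84 ± 0.12, SD, n = 6) and at 0.5 h 10.42 to 10.81 (10.60 ± 0.13), within or close to the WT ranges. At 1 h they had 10.64 to 10.79, all below the lowest WT value of 11.35. At 2 h they had 8.33 to 8.73, again all below the WT values of 9.48 to 9.70. The log2 of summed dendritic cell marker values (Flt3 and Zbtb46) at 2 h was 5.03 to 5.41 in WT, 4.64 to 4.86 with RSKi47, 4.14 to 4.70 in Map3k8[D270A], and 3.82 to 4.29 in Elk1-/-Elk4-/- cells. Without LPS it was 3.28 to 3.46, 3.21 to 3.44, 3.20 to 3.31, and 3.23 to 3.61 in the same order, so it rose with LPS in each. Of these 2 markers, 1 passed the filter. The part of these markers in the Myc differences at 2 h was not tested. The difference from WT was 0.14 without LPS, -0.13 at 0.5 h (limma adjusted p = 0.4787), -0.74 ± 0.07 (SE) at 1 h (limma adjusted p = 2.87e-12), and -1.07 ± 0.08 at 2 h (limma adjusted p = 2.38e-16). The LPS response of Myc itself differed from that in WT by -0.88 at 1 h (limma adjusted p = 3.28e-09), where the rise was smaller, and by -1.21 at 2 h (limma adjusted p = 3.98e-13), where the fall below the unstimulated level was larger, and at 0.5 h the difference of responses was -0.27 (limma adjusted p = 1.0000). In Map3k8[D270A] cells Myc at 2 h thus stood 1.31 ± 0.07 below its own unstimulated level (-1.31, limma adjusted p = 5.34e-24), whereas in WT it had not moved past the test.

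Among the other members, Mxi1 at 2 h was the only one called between Map3k8[D270A] and WT cells with all replicates (-0.22, limma adjusted p = 0.0060). At 2 h the interval of the difference from WT was from -0.11 to 0.12 for Max, from -0.17 to 0.21 for Mxd1, from -0.13 to 0.11 for Mxd4, and from -0.11 to 0.15 for Mnt. In the mutant libraries at 2 h, replicates 1 to 3 and 4 to 6 stood apart in 3 of these genes, with Mnt at 8.23 to 8.28 against 8.61 to 8.65, Mxd1 at 10.72 to 10.97 against 10.22 to 10.53, and Max at 11.29 to 11.39 against 10.92 to 11.00. The comparison was therefore repeated with WT replicates 4 to 6 and mutant replicates 1 to 3, and with WT 7 to 9 and mutant 4 to 6, which at 2 h leaves a single WT library that is assumed to vary like the other groups. Myc differed from WT by -0.77 and -0.71 at 1 h and by -1.20 and -0.91 at 2 h in these sets, each with a limma adjusted p below 0.05. At 2 h the calls of other members changed with the set. The first set called Max (0.17, limma adjusted p = 0.0028), Mxd1 (0.20, limma adjusted p = 0.0228), Mxd4 (-0.15, limma adjusted p = 0.0245), and Mxi1 (-0.26, limma adjusted p = 1.30e-04), whereas the second called none of them, with Mxi1 at -0.20 (limma adjusted p = 0.0727). The count of called members was 0, 0, 1, and 2 at 0, 0.5, 1, and 2 h, against 1.44%, 1.37%, 9.79%, and 27.7% of all genes. For the difference of responses it was 0, 1, and 1 at 0.5, 1, and 2 h, against 0.109%, 2.02%, and 15.5%. All 7 members were called between 0 and 2 h in Map3k8[D270A] cells, where 69.5% of all genes were.

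**Figure D2:**
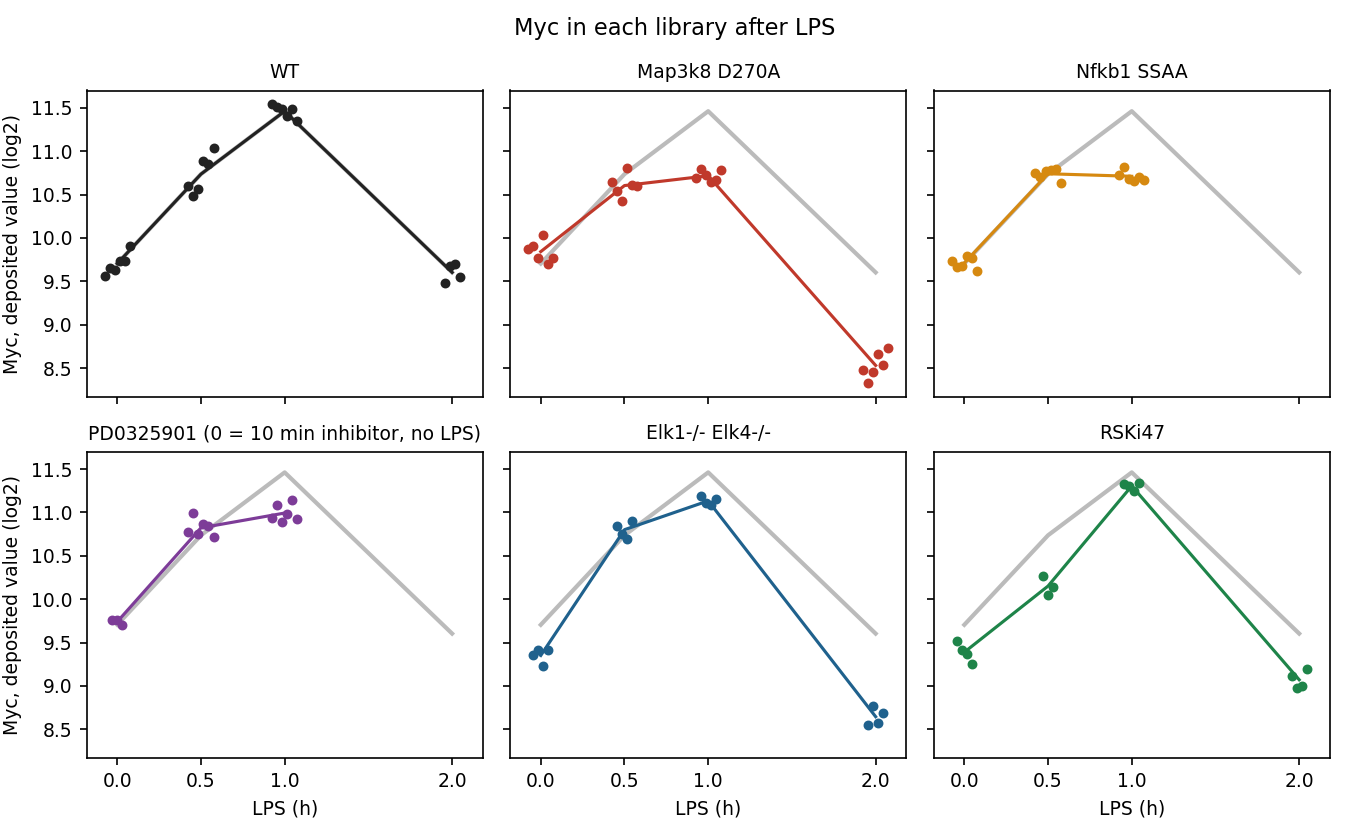
Deposited value of Myc (log2, y axis) by hours of LPS (x axis), 1 panel per genotype or inhibitor, with 1 point per library, a line through the group means, and the WT means in gray (0 h of PD0325901 is 10 min of inhibitor alone). The 1 h values of Map3k8[D270A] (10.64 to 10.79) and Nfkb1[SS/AA] cells (10.66 to 10.82) lie below those of WT (11.35 to 11.54), and the inhibitor-treated and Elk1-/-Elk4-/- values lie between them.

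Nfkb1[SS/AA] cells, in which LPS cannot release TPL-2 from p105, had Myc below WT at 1 h. Their values were 9.62 to 9.79 without LPS and 10.64 to 10.80 at 0.5 h, both inside the WT ranges. At 1 h they were 10.66 to 10.82, below every WT library, with a difference of -0.75 ± 0.06 (limma adjusted p = 1.78e-19). The response at 1 h was lower than in WT by -0.76 (limma adjusted p = 1.68e-11) and that at 0.5 h differed by 0.00. At 1 h Myc differed from that in Map3k8[D270A] cells by -0.01, with a 95% interval from -0.13 to 0.11, in a comparison chosen after the values were seen.

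Nfkb1[SS/AA] cells differed from WT in Mnt and Mxd1 before LPS. Mnt was 10.42 to 10.64 without LPS, above the WT range of 10.20 to 10.35, and its difference was 0.27, 0.21, and 0.15 at 0, 0.5, and 1 h (limma adjusted p = 9.01e-06, 4.85e-04, and 0.0120). Mxd1 was higher by 0.26 without LPS (limma adjusted p = 0.0419), lost without any of WT replicates 5, 7, and 9 or Nfkb1[SS/AA] replicates 4, 5, and 6 (limma adjusted p up to 0.1144), and by 0.38 at 0.5 h (limma adjusted p = 0.0021), with summed neutrophil markers of 6.73 to 8.35 in these libraries. In Mxd1, Nfkb1[SS/AA] replicates 1 to 3 lay below 4 to 6 without LPS (9.29 to 9.43 against 9.62 to 9.74) and at 0.5 h (9.91 to 10.20 against 10.31 to 10.60), as did their summed macrophage markers (18.6 to 18.8 against 18.9 to 19.1 without LPS). The part of the markers in these values was not tested. Its response at 1 h differed by -0.42, with limma adjusted p = 0.0707, or 8.04e-05 with the replicate number as a block. At 1 h the small differences of Max (0.14, limma adjusted p = 0.0171), Mxi1 (-0.15, 0.0299), and Mxd4 (-0.13, 0.0483) were also called. They were lost without any of WT 8 and Nfkb1[SS/AA] 2 and 6 for Max (up to 0.0531), WT 4 to 6 and Nfkb1[SS/AA] 2, 5, and 6 for Mxi1 (up to 0.0984), and WT 5 to 9 and Nfkb1[SS/AA] 2, 3, and 5 for Mxd4 (up to 0.3316). Called members numbered 2, 2, and 5 at 0, 0.5, and 1 h, against 32.0%, 32.3%, and 42.5% of all genes, and 0 and 1 for the responses, against 0.309% and 6.07%.

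In cells with PD0325901, which blocks the activation of ERK1/2 by MKK1/2, and without LPS, Myc was lower after 40 and 70 min than after 10 min. After 10 min the libraries had 9.76, 9.77, and 9.70, beside 9.80, 9.80, and 9.72 with DMSO. After 40 min they had 8.77, 8.92, and 8.83, and after 70 min 8.16, 8.01, and 7.86. The summed neutrophil markers were 7.29 to 8.08 at 10 min, 8.43 to 8.79 at 40 min, and 8.43 to 8.47 at 70 min, and their part in the course of Myc was not tested. The Myc values at 10, 40, and 70 min do not overlap, and the last is the lowest Myc of the series. Against 10 min of inhibitor the difference was -0.90 ± 0.09 (SE) at 40 min (limma adjusted p = 8.87e-15) and -1.73 ± 0.09 at 70 min (limma adjusted p = 9.03e-33), in comparisons chosen after the values were seen. DMSO was sampled at 10 min only, so the course with time has no solvent control. At 70 min, Mxd4 (0.30, limma adjusted p = 0.0050) and Mnt (0.28, limma adjusted p = 0.0060) were higher than at 10 min. The call was lost without PD0325901 replicate 1 or 2 for Mxd4 (limma adjusted p up to 0.1286) and 2 or 3 for Mnt (up to 0.1035). Called members numbered 1 at 40 min and 3 at 70 min, against 3.58% and 6.09% of all genes. After 10 min, limma called no member and 0% of all genes against DMSO, with 245 genes at an unadjusted p below 0.05.

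**Figure D3:**
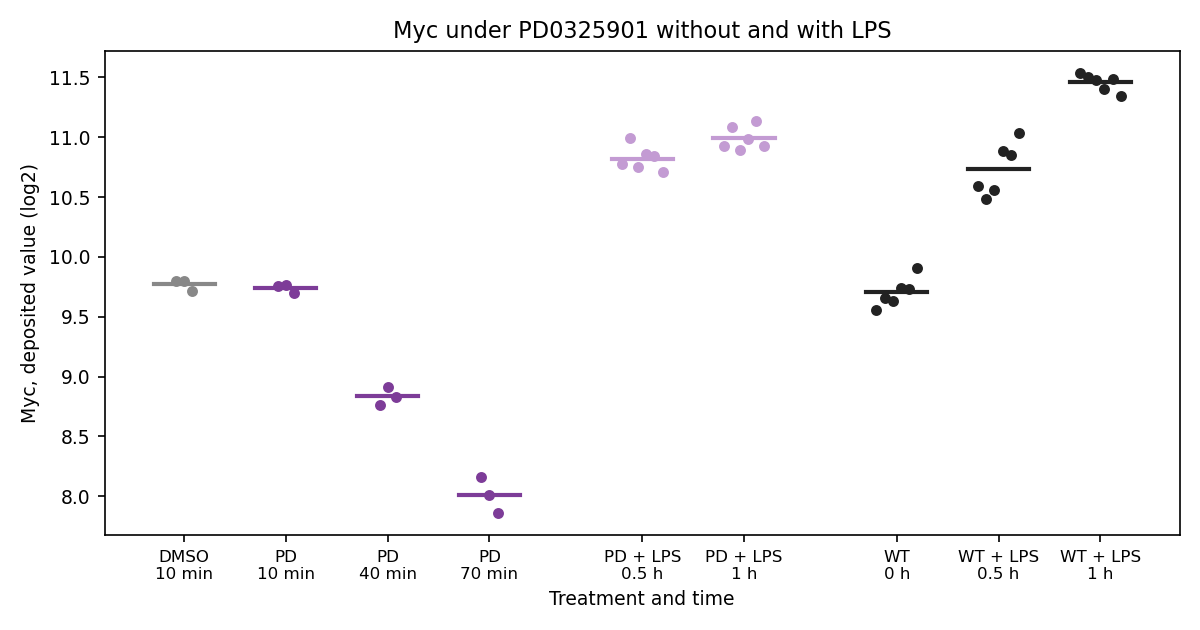
Deposited value of Myc (log2, y axis) in groups of WT cells with DMSO, PD0325901 (PD) alone, PD0325901 with LPS, and LPS without inhibitor (x axis), with 1 point per library and bars at group means. Myc with inhibitor alone goes from 9.70 to 9.77 at 10 min to 7.86 to 8.16 at 70 min, whereas with inhibitor and 1 h of LPS it lies at 10.89 to 11.14.

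With LPS, the PD0325901 libraries had Myc at 10.71 to 10.99 at 0.5 h, inside the WT range, and at 10.89 to 11.14 at 1 h, below every WT library. The difference from WT with LPS was 0.09 at 0.5 h (limma adjusted p = 0.2966) and -0.47 ± 0.06 (SE) at 1 h (limma adjusted p = 5.76e-10). At 1 h Myc under PD0325901 was higher than in Map3k8[D270A] cells by 0.28 ± 0.06 (limma adjusted p = 1.45e-04). No LPS libraries with DMSO were analysed here.

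How the LPS response of Myc under PD0325901 compares with that in WT depends on the start that is taken. From cells with inhibitor alone for the same total time, Myc rose by 1.98 ± 0.07 at 0.5 h and 2.98 ± 0.07 at 1 h, which is larger than in WT by 0.95 (limma adjusted p = 1.47e-13) and 1.22 (limma adjusted p = 2.18e-19). From cells with inhibitor for 10 min, a start added after the data were seen, the response differed from that in WT by 0.05 at 0.5 h (limma adjusted p = 0.9018) and was smaller by 0.50 at 1 h (limma adjusted p = 1.37e-04). The start also mattered for Mnt. Its fall at 1 h was larger than in WT by 0.38 from the matched start (-0.38, limma adjusted p = 6.57e-04), whereas the difference was -0.10 and not called from the 10 min start. Called members for the responses numbered 1 and 2 at 0.5 and 1 h from the matched start, against 1.49% and 3.58% of all genes, and 0 and 1 from the 10 min start, against 1.65% and 3.64%.

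Among the other members, Mxd1 was higher under PD0325901 with LPS than in WT. At 1 h its 6 values were 11.23 to 11.43, above the WT range of 10.53 to 11.03, with a difference of 0.45 ± 0.10 (limma adjusted p = 3.00e-04), and at 0.5 h the difference was 0.28 (limma adjusted p = 0.0286, up to 0.0738 without any of WT 4, 5, 6, and 9 and PD0325901 1 and 4). DMSO cells without LPS also had Mxd1 above WT, at 9.55 to 9.63 against 9.03 to 9.35 (0.34, limma adjusted p = 0.0380, up to 0.1177 without WT 7 or 9 or any DMSO library), and Mxd4 below it (-0.29, limma adjusted p = 6.17e-04). The summed neutrophil markers were 7.29 to 8.81 in PD0325901 and 7.54 to 8.25 in DMSO libraries, and their part in the difference of Mxd1 was not tested. Smaller calls with LPS were Max (0.14 at both times), Mxd4 at 0.5 h (-0.14), and Mxi1 at 1 h (-0.19). Replicates n and n + 3 of PD0325901 with LPS were closer to each other than to any other library in all 12 cases, with Mxd1 at 11.43 and 11.42, 11.25 and 11.24, and 11.23 and 11.24 at 1 h. The labels do not say whether these are separate cultures, and if each pair is 1 culture, n is 3 and not 6 in these groups. With each such pair averaged to 1 value, Myc and Mxd1 at 1 h were still called, and Max, Mxd1, and Mxd4 at 0.5 h (limma adjusted p = 0.1129, 0.1239, and 0.1449) and Max and Mxi1 at 1 h (0.0814 and 0.0505) were not.

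Called members under PD0325901 with LPS numbered 3 and 4 at 0.5 and 1 h against WT, where 29.4% and 35.7% of all genes were called. They numbered 2 and 4 against the inhibitor alone (14.9% and 43.6%), 4 at 1 h against Map3k8[D270A] cells (40.7%), of which Mnt (limma adjusted p = 0.1265) and Mxi1 (0.0753) were lost with pairs averaged, and 2 for DMSO against untreated WT cells (23.6%).

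Elk1-/-Elk4-/- cells had lower Myc than WT without LPS, at 1 h, and most of all at 2 h, but not at 0.5 h. The values were 9.35, 9.41, 9.23, and 9.42 without LPS, 10.85, 10.75, 10.70, and 10.91 at 0.5 h, 11.19, 11.10, 11.09, and 11.15 at 1 h, and 8.55, 8.77, 8.58, and 8.68 at 2 h. At 0.5 h they lie within the WT range, and at the other times all lie below it. The difference from WT was -0.35 ± 0.08 (SE) without LPS (limma adjusted p = 1.38e-04), 0.06 at 0.5 h, -0.33 ± 0.08 at 1 h (limma adjusted p = 3.49e-04), and -0.96 ± 0.08 at 2 h (limma adjusted p = 1.36e-13). The response differed from that in WT at 2 h, by -0.60 (limma adjusted p = 9.96e-05), and by 0.42 (limma adjusted p = 0.1788) and 0.03 at 0.5 and 1 h, which were not called. The difference at 0.5 h was called in a single fit of all libraries (limma adjusted p = 0.0366) and with the replicate number as a block (0.0492). At 1 h Myc was higher than in Map3k8[D270A] cells by 0.42 ± 0.08 (limma adjusted p = 1.17e-05). At 2 h the difference between these cells was 0.11 (limma adjusted p = 0.2196), with a 95% interval from -0.04 to 0.27.

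Mxd1 went the other way in Elk1-/-Elk4-/- cells and was higher than in WT at every time. At 2 h its values were 11.55, 11.49, 11.47, and 11.48, above the WT values of 10.44 to 10.70, and the ranges were also separate at the earlier times. The difference was 0.45 without LPS, 0.76 and 0.68 at 0.5 and 1 h, and 0.92 ± 0.10 (SE) at 2 h, with limma adjusted p from 7.98e-05 to 1.60e-10. It remained called at each time with any single library left out. Its response at 2 h was larger than in WT by 0.47 (limma adjusted p = 0.0130), which after quantile normalization was 0.35 (limma adjusted p = 0.0658). All 8 neutrophil markers listed lay above their WT range at 2 h in these libraries, among them S100a8 at 8.02 to 8.48 against 4.74 to 5.76 and Ngp at 8.85 to 9.10 against 3.87 to 5.15. Among them, Ly6g (0.20 to 0.60) and Mpo (1.37 to 1.80) were low, below the linear value of 10 that the filter asked for. The part of the neutrophil markers in the level of Mxd1 was not tested.

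Further members of the network moved less in Elk1-/-Elk4-/- cells. Mxi1 was lower at 1 h by -0.22 (limma adjusted p = 0.0026) and at 2 h by -0.42 (limma adjusted p = 1.00e-06). Max at 2 h had values of 11.35 to 11.38, higher than in WT by 0.23 (limma adjusted p = 0.0019). Mxd4 was lower by -0.21 and -0.24 at 0 and 0.5 h. Mnt was lower by -0.19 at 1 h (lost without Elk1-/-Elk4-/- replicate 4, limma adjusted p = 0.0805) and by -0.17 at 2 h (lost without any of WT 5, 7, and 9 and Elk1-/-Elk4-/- 1 to 3, up to 0.1895). Mlx was higher by 0.09 at 2 h (lost without any of WT 4 to 6 and Elk1-/-Elk4-/- 3 and 4, up to 0.0953). Called members numbered 3, 2, 4, and 6 at 0, 0.5, 1, and 2 h, against 51.8%, 44.4%, 53.4%, and 50.8% of all genes. For the responses they numbered 0, 0, and 3, against 0.0589%, 1.35%, and 16.9%. They numbered 6 between 0 and 2 h within these cells (67.2%), and 4 and 5 at 1 and 2 h against Map3k8[D270A] cells (51.6% and 49.6%).

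**Figure D4:**
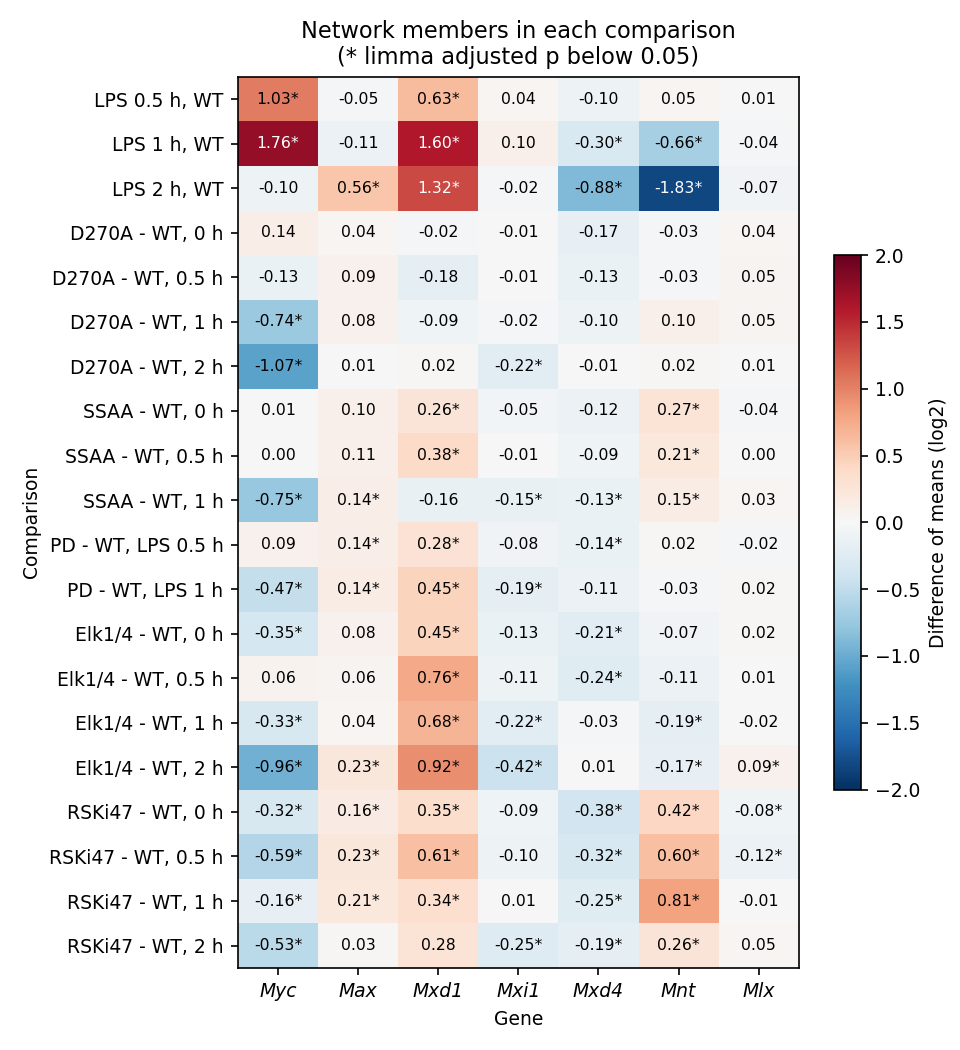
Difference of group means (log2, color scale and printed numbers) for the 7 members (x axis) in each comparison (y axis), first LPS against 0 h in WT and then each genotype or inhibitor against WT at the same time, with an asterisk at a limma adjusted p below 0.05. At 1 h Myc is lower than WT in every comparison, from -0.16 with RSKi47 to -0.75 in Nfkb1[SS/AA] cells, and Mnt is higher with RSKi47 at each time.

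In cells with RSKi47, an inhibitor of the RSK kinases that ERK1/2 activate, Mnt was higher than in WT at every time. With RSKi47 Mnt was 10.71, 10.69, 10.65, and 10.66 at 0 h and 10.93, 10.90, and 10.88 at 0.5 h. At 1 h it was 10.47, 10.38, 10.41, and 10.34, and at 2 h 8.73, 8.58, 8.62, and 8.83. Every library lay above every WT library of the same time. The log2 of summed fibroblast marker values was 5.04 to 9.41 in RSKi47 libraries, against at most 4.90 in all other cells, and its part in the differences of Mnt and of the other members between RSKi47 and other cells was not tested. The difference was 0.42 ± 0.06 (SE), 0.60 ± 0.06, 0.81 ± 0.06, and 0.26 ± 0.06 at the 4 times, with limma adjusted p of 7.08e-10, 5.70e-14, 6.41e-23, and 2.13e-04, and it was called with any single library left out. The fall of Mnt at 1 h was smaller than in WT by 0.39 (limma adjusted p = 4.03e-04). At 0.5 h the responses differed by 0.18 (limma adjusted p = 0.9997) and at 2 h by -0.16, which was not called. Within the RSKi47 cells, Mnt at 2 h was 1.98 below 0 h (-1.98). At 1 h Mnt was higher with RSKi47 than with PD0325901 by 0.84 ± 0.06 (limma adjusted p = 4.12e-24).

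Myc was lower with RSKi47 than in WT by -0.32 at 0 h (limma adjusted p = 4.74e-05), -0.59 at 0.5 h (limma adjusted p = 1.86e-10), and -0.53 at 2 h (limma adjusted p = 2.10e-09). At 1 h its values were 11.33, 11.31, 11.25, and 11.34, just below the lowest WT value of 11.35, and the difference of -0.16 (limma adjusted p = 0.0451) was lost without any of WT replicates 4, 5, 6, and 8 or any RSKi47 replicate, with adjusted p up to 0.1278. The LPS response of Myc differed from that in WT by -0.27, 0.16, and -0.22 at the 3 times, none of them called, although at 2 h the replicate block gave -0.26 (limma adjusted p = 0.0268). Myc was lower with RSKi47 than with PD0325901 at 0.5 h (-0.67, limma adjusted p = 9.93e-13) and higher at 1 h (0.31, limma adjusted p = 5.38e-05).

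Mxd1 was higher with RSKi47 by 0.35 at 0 h (limma adjusted p = 0.0073), 0.61 at 0.5 h (limma adjusted p = 3.45e-05), and 0.34 at 1 h (limma adjusted p = 0.0100, or 0.0810 without RSKi47 replicate 1). At 2 h the difference was 0.28 (limma adjusted p = 0.0560). The RSKi47 libraries had no solvent control of their own. Without LPS, mean Mxd1 was 9.60 with RSKi47 and 9.59 with DMSO, against 9.25 in untreated WT cells. Mean Mxd4 was 9.47, 9.56, and 9.85 in the same groups. The part of a solvent in these differences was not tested. The summed neutrophil markers were 7.08 to 8.59 in RSKi47 libraries, against 6.24 to 7.74 in WT, and their part in the level of Mxd1 was not tested. Replicate 4 was below the other RSKi47 libraries in Mxd1, at 10.71 against 11.29 to 11.43 at 1 h and 10.13 against 10.98 to 11.17 at 2 h, and without it the difference at 2 h was 0.52 (limma adjusted p = 5.68e-05). The log2 of summed fibroblast marker values in replicate 4 was 9.41, 7.32, and 6.49 at 0, 1, and 2 h, against 5.04 to 5.97 in the other RSKi47 libraries. Mxd4 was lower at all 4 times, by -0.38, -0.32, -0.25, and -0.19, the last with limma adjusted p = 0.0111, or 0.0812 without RSKi47 replicate 4. Max was higher by 0.16 (lost without RSKi47 replicate 3, limma adjusted p = 0.0684), 0.23, and 0.21 at 0, 0.5, and 1 h, and Mxi1 lower by -0.25 at 2 h. Mlx was lower by -0.08 and -0.12 at 0 and 0.5 h, calls that were lost without any of WT 4, 5, and 7 and RSKi47 1 to 3 at 0 h (limma adjusted p up to 0.1284) and without RSKi47 2 at 0.5 h (0.0545). Called members numbered 6, 6, 5, and 4 at 0, 0.5, 1, and 2 h, against 53.0%, 48.2%, 52.8%, and 52.1% of all genes, and 0, 1, and 0 for the responses, against 0.0251%, 5.54%, and 21.0%. They numbered 6 between 0 and 2 h within RSKi47 cells (62.2%), and 5 and 3 at 0.5 and 1 h against PD0325901 with LPS (49.5% and 53.9%), of which Mxd1 (limma adjusted p = 0.0729) and Mlx (0.0523) at 0.5 h were lost with the PD0325901 pairs averaged.

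**Figure D5:**
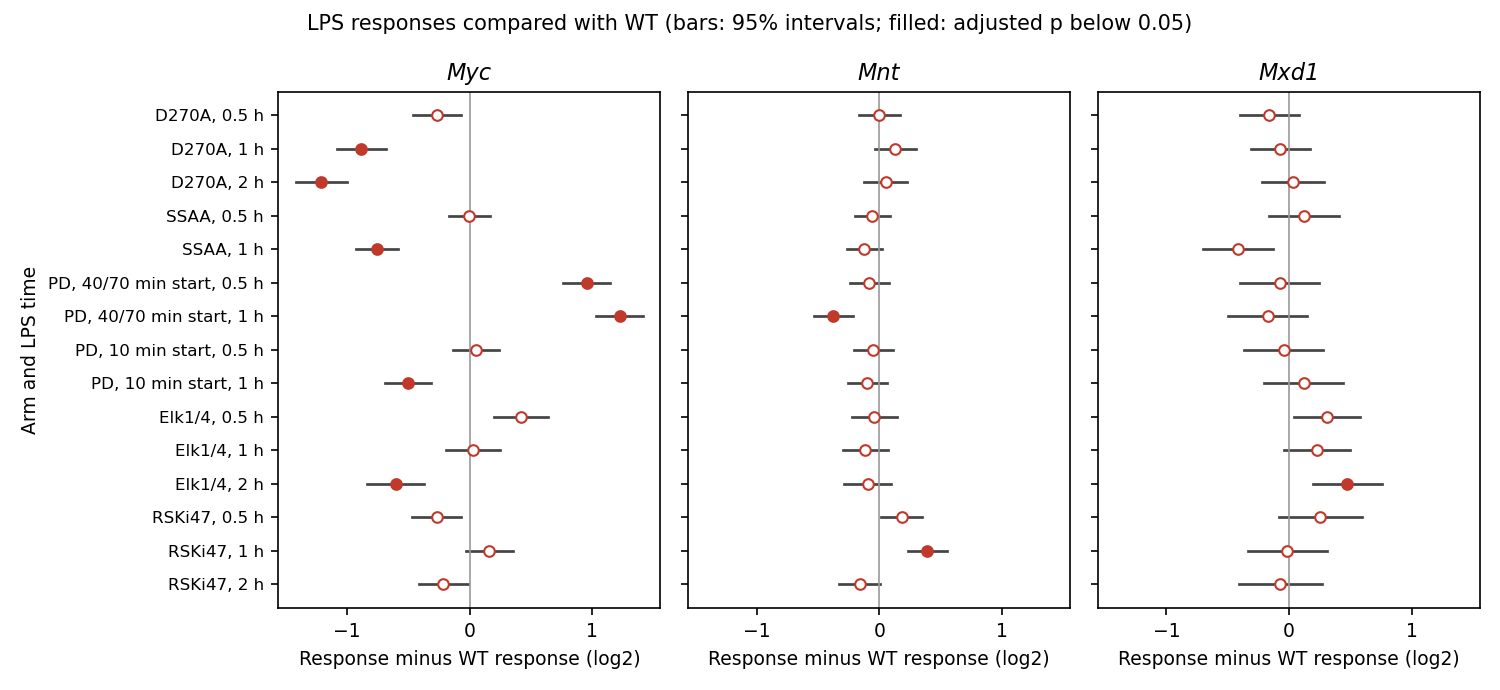
Difference of the LPS response from that in WT (log2, x axis, bars are 95% intervals) for Myc, Mnt, and Mxd1 by genotype or inhibitor and time of LPS (y axis), with filled points at a limma adjusted p below 0.05. Myc at 1 h lies at -0.88 in Map3k8[D270A] and -0.76 in Nfkb1[SS/AA] cells, and under PD0325901 at 1.22 from the matched start and -0.50 from the 10 min start.

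Ordered by level at 1 h of LPS, Myc was highest in WT (11.46 ± 0.07, SD, n = 6), followed by RSKi47 (11.31 ± 0.04, n = 4), Elk1-/-Elk4-/- (11.13 ± 0.05, n = 4), and PD0325901 (10.99 ± 0.10, n = 6), and lowest in Map3k8[D270A] (10.72 ± 0.06, n = 6) and Nfkb1[SS/AA] cells (10.71 ± 0.06, n = 6). The last pair does not differ beyond its spread, and the values of Elk1-/-Elk4-/- and PD0325901 libraries overlap (11.09 to 11.19 and 10.89 to 11.14). At 2 h the order was WT (9.60 ± 0.11, SD, n = 4), RSKi47 (9.07 ± 0.10, n = 4), Elk1-/-Elk4-/- (8.65 ± 0.10, n = 4), and Map3k8[D270A] (8.53 ± 0.14, n = 6), of which the last pair overlaps.

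The genes whose level followed that of Myc most closely over the 25 group means were Phlda1 (Pearson r = 0.92), Dusp4 (0.91), Trib1 (0.89), Slc25a25 (0.89), and Pias2 (0.88), among 11964 genes. DUSP4 is a phosphatase of MAP kinases. For Max they were Daxx (0.98) and Arhgap35 (0.97), for Mxd1 Skil (0.92) and Pgf (0.92), and for Mnt Gne (0.98). For Mxd4 they were Susd3 (0.97) and Snx8 (0.96), for Mxi1 Trpv4 (0.84) and Zbtb2 (0.84), and for Mlx Thumpd3 (0.81) and Mettl3 (0.77). Between members, the correlation over the same means was 0.82 for Mxd4 and Mnt, -0.84 for Max and Mxd4, -0.72 for Max and Mnt, and 0.63 for Myc and Mxi1. The points share LPS times, experiments, and libraries, and these values are descriptions.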

How the data were processed

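RNA-seq was single-end and strand-specific. The submitters' processing notes name STAR 2.5.1b, RSEM 1.2.29, DESeq2 1.10.1, and mm10. The authors deposited normalized expression values on a log2 scale, 1 per gene and library, from -2.40 to 19.81. Neither labels nor methods state the transformation, and differences may be drawn together by it. All columns matched a sample by name, and 1 value above 25 was set missing.

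Groups were compared on the deposited values with limma 3.58.1 in R 4.3.3 (cell means, no trend). The fit of 62 libraries kept genes that reached a linear value of 10 in 4 of them, and the fit of all libraries asked for 3. P values were adjusted over all genes tested by the Benjamini-Hochberg method, at 0.05. The code was tested on simulated data. Named genes are the 7 members, the genes most like them over group means, checks of the labels, and the 3 called genes with the largest change of each list. A gene that this rule names is not reported here. The members and lists were chosen with earlier results of these data known.

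Libraries of the same replicate number deviated alike across the times within WT cells (correlation of deviations above 0.1 in 30 of 30 pairs) and within Nfkb1[SS/AA] cells (18 of 18), and not across genotypes. Libraries of different numbers reached 0.57 in WT and 0.41 in Nfkb1[SS/AA] cells. The best match was with the own number in 24 of 30 and 15 of 18 cases, so the cut of 0.1 does not show pairing by number alone. In Map3k8[D270A] (34 of 36), RSKi47 (20 of 21), and Elk1-/-Elk4-/- cells (20 of 24) most but not all pairs were above 0.1. Under PD0325901 only 14 of 33 were, and numbers did not pair the times. The highest correlation there was 0.30 for the same number and 0.31 for different numbers. With the number as a block, Max (-0.11, limma adjusted p = 0.0204) and Mxi1 (0.10, limma adjusted p = 0.0241) at 1 h and Mlx at 2 h (limma adjusted p = 0.0477) were also called in WT, and Mxi1 between 1 and 2 h (limma adjusted p = 4.94e-04). Alternatives were another filter, a trend, centring, quantile normalization, thresholds on size, blocks, sets of replicates, averaged pairs, and leaving out each replicate.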

Additional observations from a re-analysis of the deposited data

Results flagged for a closer look

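The LPS response differed from that in WT, by the limma test of the difference itself, in 11 cases among the members. For Myc it was -0.88 at 1 h and -1.21 at 2 h in Map3k8[D270A] cells, -0.76 at 1 h in Nfkb1[SS/AA] cells, and -0.60 at 2 h in Elk1-/-Elk4-/- cells. Under PD0325901 it was 0.95 at 0.5 h and 1.22 at 1 h for Myc from inhibitor alone of matched time, but -0.50 at 1 h from 10 min of inhibitor. Mxd1 had a larger response at 2 h in Elk1-/-Elk4-/- cells (0.47) and Mxi1 a lower one (-0.30, with limma adjusted p up to 0.0633 without WT 7 or Elk1-/-Elk4-/- 3 or 4). After quantile normalization these were 0.35 (limma adjusted p = 0.0658) and -0.25 (limma adjusted p = 0.0677). Mnt differed by -0.38 under PD0325901 and by 0.39 with RSKi47, both at 1 h.

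A single library stood apart from its group in 4 of 140 member and group pairs, where chance gives about 1 in 20. Mxi1 was 9.40 in RSKi47 replicate 4 at 2 h (others 9.18 to 9.22) and 9.67 in Nfkb1[SS/AA] replicate 1 at 1 h (others 9.40 to 9.46). Mnt was 10.03 in Elk1-/-Elk4-/- replicate 4 without LPS (others 10.23 to 10.25), and Mlx was 9.39 in Nfkb1[SS/AA] replicate 3 without LPS (others 9.52 to 9.58).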

How the results depend on the processing

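Of 357 member differences, direction and call held for 357 with a trend, 350 without a filter, 355 with a stricter one, 349 with each library centred, and 340 with quantile normalization, which made Myc in WT at 2 h a call (-0.19, limma adjusted p = 0.0248) and turned Mlx between 0 and 2 h in Elk1-/-Elk4-/- cells to -0.084. Leaving out single replicates kept 3403 of 3542. Myc with RSKi47 at 1 h, -0.16 also without the filter (limma adjusted p = 0.0613), then ran from -0.18 to -0.14, and the count for DMSO against WT from 1 to 3 (1 without WT replicate 7 or any DMSO replicate, and 1 without the filter). With a block of replicate numbers 4 to 6 in both genotypes, which the numbers do not justify as pairs, Myc was 0.22 (Map3k8[D270A], 0 h) and 0.19 (Nfkb1[SS/AA], 0.5 h), and at 2 h Max was -0.22 and Mxd1 -0.26 in Map3k8[D270A] cells, whose calls went from 3 to 13. They were 9 with WT 4 to 6 and mutant 1 to 3 alone, where Myc without LPS was 0.24 and, at 2 h, Max (0.17) and Mxd1 (0.20) were called in the opposite direction to that under the block. A block of arm and number raised called responses from 10 to 17 (Myc at 0.5 h in Elk1-/-Elk4-/- cells and at 2 h with RSKi47, Mxd1 at 1 h in Nfkb1[SS/AA] cells, Mlx at 2 h with RSKi47, and Mxd4 at 2 h in Map3k8[D270A], Elk1-/-Elk4-/-, and RSKi47 cells), and pair averaging lowered PD0325901 calls with LPS from 7 to 2.

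With a difference of at least 1 also required, calls fell from 10 to 5 (LPS in WT), 3 to 1 (Map3k8[D270A]), 10 to 2 (responses), and to 0 in Elk1-/-Elk4-/- (from 15), Nfkb1[SS/AA] (9), PD0325901 with LPS (7), DMSO (2), and RSKi47 (21). At the natural logarithm of 2, which would mark a doubling if differences were natural logarithms, they were 6 in WT, 2 in Map3k8[D270A], 3 in Elk1-/-Elk4-/-, 1 in Nfkb1[SS/AA], 0 with PD0325901, 0 with DMSO, 1 with RSKi47, and 5 for the responses. Depth is unknown, and no pseudocount was needed on values already on a log scale.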

Other observations

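Growth genes that MYC is known to activate were described by their counts, beside those of all genes. Of 24, 18 were higher and 3 lower in WT at 2 h of LPS (all genes 34.7% and 36.8%), with Rrs1, a ribosome assembly factor (1.80), Odc1, the rate-limiting enzyme of polyamine synthesis (1.19), and Nop58, of the nucleolar particles that modify rRNA (1.04). Against WT at 2 h, 1 was higher and 10 lower in Map3k8[D270A] cells (all genes 14.6% and 13.1%), with Odc1 (-0.62), Rrp9 (-0.38), and Gnl3 (-0.37). In Elk1-/-Elk4-/- cells at 2 h 1 was higher and 14 lower (27.7% and 23.1%), with the spermidine synthase gene Srm (-0.71), Rrs1 (-0.69), and Gnl3 (-0.61), and 0 were higher and 16 lower without LPS (27.2% and 24.6%). With RSKi47 at 2 h 2 were higher and 17 lower (27.5% and 24.6%), with Odc1 (-1.28), Nop58 (-0.60), and Srm (-0.55). At 2 h summed fibroblast markers were 5.30 to 6.49 with RSKi47 and 4.02 to 4.45 in WT. Summed neutrophil markers were 10.7 to 11.0 in Elk1-/-Elk4-/- cells and 6.42 to 7.73 in WT. The part of these markers in the counts was not tested.

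Of 6 other genes of the network, 4 passed the filter. Mycl, a relative of Myc, was at 4.33 ± 0.28 (SD, n = 6) without LPS and 7.44 ± 0.15 (SD, n = 4) at 2 h in WT, a difference of 3.11. Mxd3 was lower by -0.45 at 1 h and -0.85 at 2 h. Of 2 genes that MLX dimers are known to activate, Txnip was lower in WT by -0.49, -2.23, and -1.20 at 0.5, 1, and 2 h, where 3.81%, 23.0%, and 36.8% of all genes were lower, and Arrdc4, at 0.00 and -0.21 at 0.5 and 1 h (not called), was higher by 0.46 at 2 h, where 34.7% of all genes were higher. Of 6 corepressor genes, 4 were higher and 1 lower in WT at 2 h (all genes 34.7% and 36.8%), with Sap30 (1.65), Hdac2 (0.51), and Sin3b (0.43). Every value named here as higher or lower was called by limma at an adjusted p below 0.05.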
